A study of Mus musculus with 2 samples.

Results

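The 8 genes described here make or sense prostaglandins and leukotrienes: the cyclooxygenases Ptgs1 and Ptgs2, the prostaglandin E synthase Ptges, the prostaglandin E2 receptors Ptger2 and Ptger4, and the leukotriene genes Alox5, Alox5ap and Ltc4s. They were chosen by name, and all 8 were found among the 27031 genes of the deposited table. The cells came from MC38 tumors, a mouse colorectal carcinoma line grown under the skin of female C57BL/6 mice. Mice were given vehicle (control) or telmisartan, a blocker of the angiotensin II receptor, by gavage at 5 mg/kg every day from implantation. Tumors were taken on day 13, the cells of 5 mice were pooled in each group, and live CD45+ cells were sorted, labelled with a Sample Tag per group and run together in 1 BD Rhapsody capture. Each group is therefore 1 pool, so no difference between the groups was tested, and the intervals given are 95% intervals that cover counting error only.

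Prostaglandins and leukotrienes are short-lived lipid signals made from arachidonic acid, which phospholipases free from cell membranes. Cyclooxygenases turn it into a precursor that terminal synthases convert to prostaglandin E2, thromboxane and other prostanoids, while arachidonate 5-lipoxygenase starts the leukotriene branch. In tumors, macrophages and other myeloid cells are known sources of prostaglandin E2, which acts on dendritic cells, T cells and the macrophages themselves through its receptors.

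After limits on genes and mitochondrial RNA and the removal of likely doublets, 4535 control and 4434 telmisartan cells were kept, with 41591125 and 30921742 UMIs (unique molecular identifiers, which count RNA molecules). The median cell held 8689 UMIs in control and 6357.5 in telmisartan. Because of that difference in depth, a level is given as UMIs of the gene per 1000000 UMIs of the same cells (CPM), and shares of cells with a UMI are compared after each cell was thinned at random to 1000 UMIs. The deposited tables carry no cell types, so names were rebuilt from 13 clusters and lists of marker genes. They are macrophage-like (4049 control and 3999 telmisartan cells), dendritic-like (366 and 298), T-like (72 and 113) and neutrophil-like (48 and 24). The gate was checked on Ptprc, the gene of CD45, which stood at 443 CPM in control and 387 in telmisartan and had a UMI in 85.5% and 75.9% of cells before thinning, at the depths above.

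Nearly all RNA of these genes lay in macrophage-like cells, which make up 89.7% of the kept cells and 91.7% of their UMIs. They held 98.8% of the UMIs of Ptgs1, 97.6% of those of Ptges and 96.1% of those of Ptgs2. Among the leukotriene genes, these cells held 96.2% of Alox5, 94.2% of Alox5ap and 92.1% of Ltc4s UMIs, the last near their 91.7% of all UMIs. Over both groups Ltc4s stood at 8.21 CPM in macrophage-like and 8.82 in dendritic-like cells. Of the receptors, Ptger2 lay in the same range, with 93.2% of its UMIs in macrophage-like cells. For Ptger4 the share was 73.6%, and dendritic-like cells, 7.40% of the cells, held 25.4% of its UMIs.

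By level, Ptgs2 was highest in the few neutrophil-like cells, at 4576 CPM in control and 4316 in telmisartan, followed by macrophage-like, dendritic-like and T-like cells, and no neighbours in that order overlapped in either group. Alox5ap ran from macrophage-like through dendritic-like and neutrophil-like to T-like cells in both groups, with the last pair overlapping in control. Ptger4 was highest in dendritic-like cells in both groups, and the classes after it overlapped with their neighbours. Ptgs1 was highest in macrophage-like cells among the classes with a UMI, and the control interval there overlapped that of T-like cells. It had 0 UMIs in neutrophil-like cells of both groups, which allows up to 38.2 CPM in control and 78.0 in telmisartan, the latter above the macrophage-like level of 34.6. Ptger2 was highest in neutrophil-like cells in both groups, at 124 CPM in control and 63.5 in telmisartan, from 12 and 3 UMIs. In control that interval (64.2 to 217) lay above those of all other classes, and in telmisartan it overlapped those of T-like and macrophage-like cells. For Ptges, Alox5 and Ltc4s the small classes held few UMIs, and at least 1 pair of neighbours overlapped in each group.

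**Figure D1:**
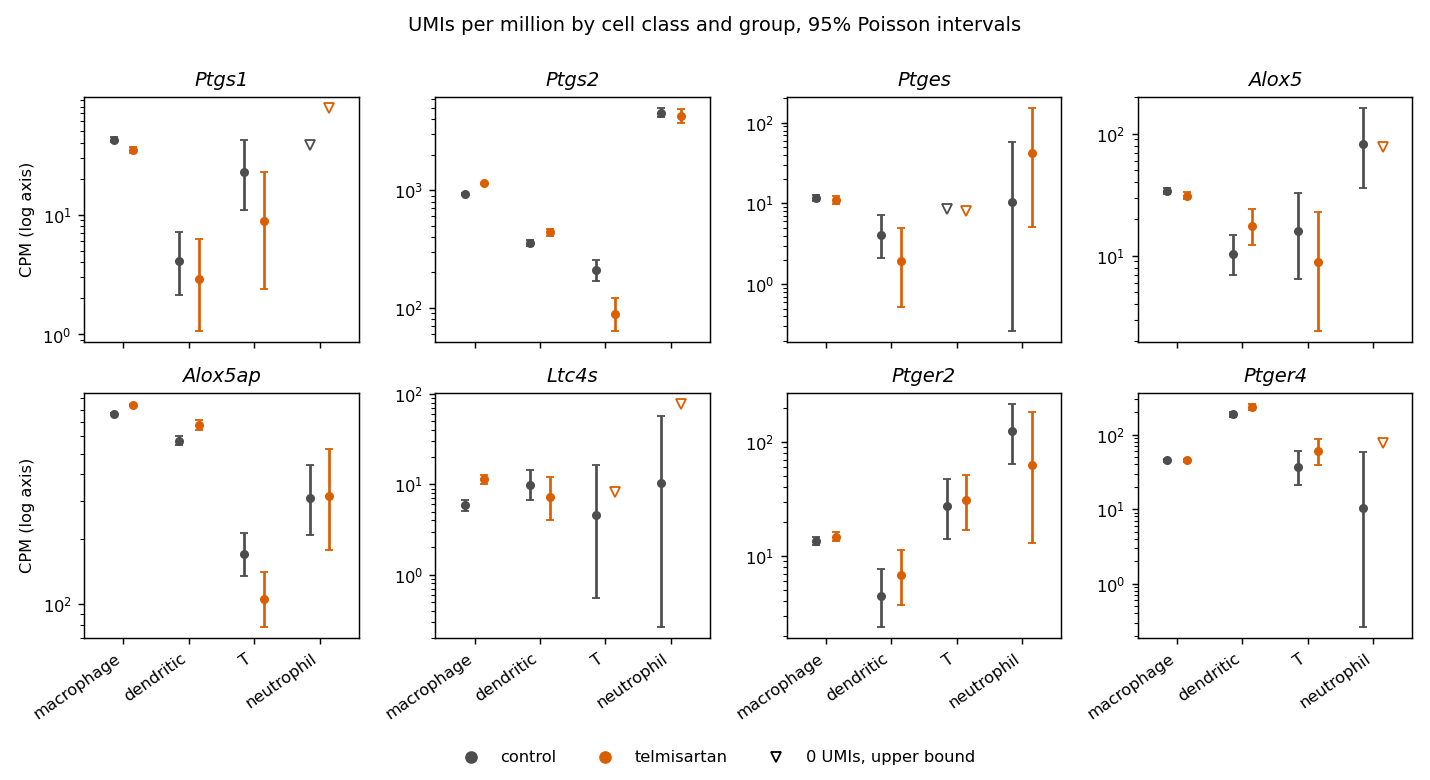
Level of each gene (CPM, log axis) in the 4 cell classes, with control in grey and telmisartan in orange; points are sums over the cells of a class, bars are 95% Poisson intervals, and open triangles give the upper bound where a class had 0 UMIs. Ptgs2 reaches 4576 CPM in neutrophil-like control cells, and Ptger4 is highest in dendritic-like cells, at 187 and 237 CPM.

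In macrophage-like cells, where the comparison of control with telmisartan rests on the most UMIs, Ltc4s was 1.95 times and Ptgs2 1.23 times as high in telmisartan as in control, Ptgs1 was 0.817 times as high, and the other members lay closer to equality. Of the 8 members, 1 differed by 1.5-fold or more, Ltc4s, beside 7.01% of the 11073 genes with at least 100 UMIs; counting higher values alone it was 1 of 8 beside 4.78%, and counting lower values 0 of 8 beside 2.23%. The median log2 ratio of telmisartan over control was 0.06 over the members and -0.05 over all genes, whose quartiles were -0.20 and 0.14. Members were higher in 4 of 8 cases, beside 42.9% of all genes. With UMIs per cell left unscaled for depth, the median of all genes was -0.45, and Ptgs2 (-0.11), Alox5ap (-0.27) and Ptger2 (-0.28), higher in telmisartan by CPM, were then below 0 but above that median. As a list, then, the members sat near the other genes, and what follows is about single genes and the macrophage states that carry them.

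Macrophage-like cells are not uniform, so they were divided again into 6 subclusters. The members and the other genes of the pathway were left out of that step, a choice made after the clusters had been seen, so that their levels did not shape the subclusters. Subcluster 1 was led by Cxcl3, Dcstamp, Ereg and Slpi (812 control and 1228 telmisartan cells), subcluster 2 by the interferon-induced genes Rsad2, Slfn4 and Ifit3 (684 and 1229), and subcluster 3 by Apoe, Folr2 and Serpinb6a (783 and 796). Subcluster 4 was led by Cxcl9, Serpina3g and Iigp1 (1222 and 318), subcluster 5 by the mitosis genes Top2a and Mki67 (377 and 339), and subcluster 6 by Ung, Mcm6 and Mcm5 of DNA replication (171 and 89). Cells of subcluster 2 were shallow: their medians were 2564 (control) and 2640 UMIs (telmisartan). Cluster 4 of the whole data set was led by the same interferon-induced genes, but over both groups it held 3086 Ptgs2, 28 Ptges and 48 Ptger2 UMIs, against 11613, 285 and 187 in subcluster 2. Most UMIs of these members in subcluster 2 thus came from cells outside cluster 4, and its levels are not those of the interferon-type cells alone.

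The release of arachidonic acid comes first in the pathway. Pla2g4a, the cytosolic phospholipase that frees it, stood at 116 CPM in control and 98.0 in telmisartan, a log2 ratio of -0.24 (-0.31 to -0.17). The other release genes with enough UMIs were Pla2g6, at 4.72 and 5.04 CPM, and the phospholipase activator Plaa, at 52.0 and 48.7. The remaining 5 of the 8 release genes on the list had fewer than 100 UMIs.

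Ptgs2 encodes the inducible cyclooxygenase and lies at chr1:150100031-150108227 on the plus strand of GRCm38. Its level was 928 CPM in control and 1142 in telmisartan macrophage-like cells, from 35405 and 32372 UMIs, a log2 ratio of 0.30 (0.28 to 0.32). After thinning, 39.0% of control and 48.2% of telmisartan cells had a UMI (68.3% and 73.7% before thinning, at median depths of 8977 and 6463 UMIs). T-like cells showed 7.35% and 5.83% after thinning (22.2% and 21.2% before, at medians of 3912 and 3001). The macrophage-like shares stood well above these. The RNA was unevenly held: the top 10% of cells carried 52.4% of the Ptgs2 UMIs in control and 46.9% in telmisartan, and a cell held up to 155.

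The Ptgs2 value over all macrophage-like cells combines opposite values within the subclusters. In subcluster 1 Ptgs2 stood at 2068 CPM in control and 1529 in telmisartan, a log2 ratio of -0.44 (-0.47 to -0.40). In the Folr2 cells of subcluster 3 it stood at 444 and 724 CPM, a log2 ratio of 0.70 (0.64 to 0.77), and in the mitotic cells of subcluster 5 at 359 and 566, a log2 ratio of 0.66 (0.57 to 0.75). The subclusters lowest in Ptgs2 in control were thus the ones with the largest ratios, while subcluster 1, the highest in control, was lower in telmisartan. Across subclusters the highest level was 5.76 times the lowest in control and 3.16 times in telmisartan.
The other subclusters were higher in telmisartan by smaller amounts: log2 ratios were 0.14 in subcluster 2 (1624 and 1789 CPM, against 763 and 787 in cluster 4), 0.19 in subcluster 4 (610.1 and 696.6) and 0.37 in subcluster 6 (698 and 899.6). Of the clusters of the whole data set, cluster 5, the highest macrophage-like one in Ptgs2 at 2997 and 2834 CPM, had a log2 ratio of -0.08 (-0.13 to -0.03), and cluster 3 had -0.05 (-0.13 to 0.04). Cluster 7, led by the same genes as subcluster 4, had Ptgs2 at 735 and 995 CPM, a log2 ratio of 0.44 (0.35 to 0.52), above the interval of subcluster 4 (0.12 to 0.27). In control the order of the subclusters was 1, 2, 6, 4, 3 and 5 with no overlapping neighbours, and in telmisartan 2, 1, 6, 3, 4 and 5 with subclusters 3 and 4 overlapping. When the telmisartan subclusters were weighted by the control's shares of UMIs, the pooled log2 ratio was 0.03 in place of 0.30, and without clusters 3 and 5 of the whole data set (described with Ptges) it was 0.15. The neutrophil marker list in macrophage-like cells summed to 81.8 CPM in control (7 of 7 genes with a UMI) and 104 in telmisartan (6 of 7, Camp at 0), most of it Mmp8 with 2162 and 2065 UMIs, and its part in the Ptgs2 difference was not tested.

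**Figure D2:**
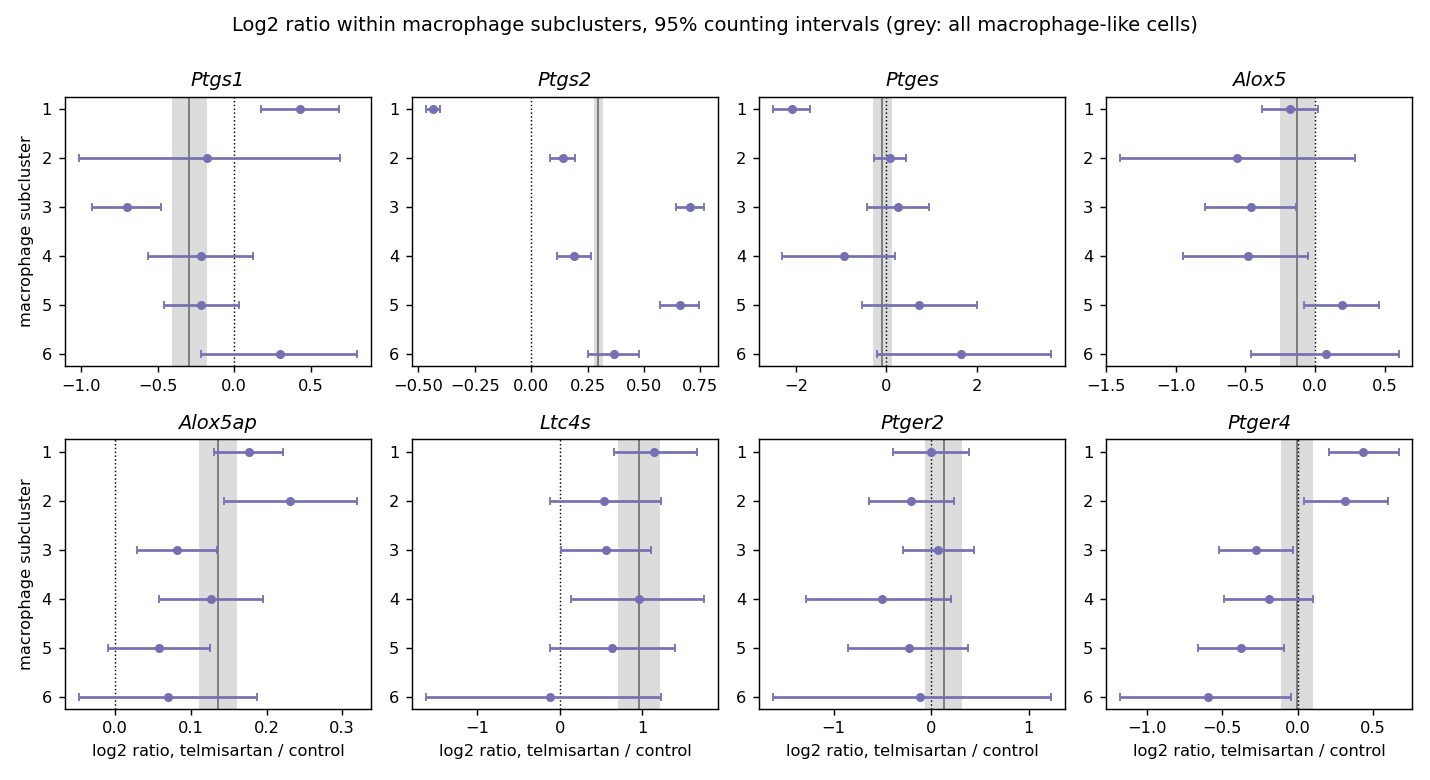
Log2 ratio of telmisartan over control for each gene in macrophage subclusters 1 to 6; points are ratios of CPM with 95% counting intervals, and the grey line and band give the value for all macrophage-like cells. Ptgs2 runs from -0.44 in subcluster 1 to 0.70 in subcluster 3, while the points of Alox5ap lie above 0 in all 6, with intervals that include 0 in subclusters 5 and 6.

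Ptgs1 encodes the constitutive cyclooxygenase (chr2:36230426-36252272, plus strand, overlapping Gm43621 on the other strand). It stood at 42.4 CPM in control and 34.6 in telmisartan, a log2 ratio of -0.29 (-0.41 to -0.18), and 3.50% and 2.70% of thinned cells had a UMI (22.0% and 15.4% before thinning). T-like cells gave 2.94% and 0.971% after thinning, so at this depth the shares of cells say little, and the comparison rests on the summed UMIs. Its distribution over the subclusters was unlike that of Ptgs2: in control it was highest in subclusters 5 and 3, whose intervals overlapped, and lowest in subcluster 2, at 8.51 CPM.
Among the subclusters the ratio was lowest in subcluster 3, where Ptgs1 stood at 61.6 CPM in control and 37.9 in telmisartan, a log2 ratio of -0.70 (-0.93 to -0.48). Subcluster 1 went the other way, at 25.3 and 34.1 CPM, a log2 ratio of 0.43 (0.17 to 0.68). The Folr2 cells of telmisartan tumors thus held less Ptgs1 and more Ptgs2, and the Cxcl3 and Ereg cells more Ptgs1 and less Ptgs2. In the other 4 subclusters the interval included 0, but cluster 7 of the whole data set, led by the same genes as subcluster 4, had Ptgs1 at 38.6 and 20.8 CPM, a log2 ratio of -0.89 (-1.48 to -0.34). The platelet marker list, from a cell type rich in this enzyme, summed to 23.0 CPM in control and 13.05 in telmisartan macrophage-like cells, with 4 of its 6 genes in the table. All these cells had passed the sort for live CD45+ cells. Most of it was Ppbp (790 and 281 UMIs), Gp6 was at 0 in telmisartan, and its part in the Ptgs1 difference was not tested.

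Ptges encodes the inducible microsomal synthase that makes prostaglandin E2 from the cyclooxygenase product (chr2:30889471-30929863, minus strand, overlapping the pseudogene Gm13400). Over all macrophage-like cells it stood at 11.7 CPM in control and 11.1 in telmisartan, from 448 and 314 UMIs, a log2 ratio of -0.09 (-0.30 to 0.13). A small set of cells carried it: the top 1% held 44.4% of its UMIs in control and 43.0% in telmisartan. After thinning, 1.42% and 1.35% of cells had a UMI (6.12% and 5.15% before), and 0 of 68 and 0 of 103 T-like cells did, which allows up to 5.28% and 3.52%.
Within the subclusters the groups were not alike. In subcluster 1 Ptges stood at 28.0 CPM in control and 6.57 in telmisartan, from 232 and 64 UMIs, a log2 ratio of -2.09 (-2.51 to -1.69). In subcluster 2, the highest of the 6 in both groups, it stood at 40.9 and 43.3 CPM, a log2 ratio of 0.08 (-0.28 to 0.45), with most of these UMIs in cells outside cluster 4. The near-equal pooled level therefore joins a state in which control was 4.26 times as high with another whose ratio had an interval that included 0. The other subclusters held 77 Ptges UMIs at most, and the interval of their ratio included 0 in each.

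The largest Ptges levels belonged to cluster 5 of the whole data set, led by Serpinb2, Hmox1, Cxcl3, Il6 and Nos2, which held 46.2% of all Ptges UMIs in 9.78% of the cells. Ptges was among the variable genes that made the clusters, so its level there is a description: 99.5 CPM in control and 81.0 in telmisartan. In the cluster that matched it when member and pathway genes were left out, with 684 of its 903 cells shared, Ptges stood at 68.0 CPM in both groups and Ptgs2 at 2484 and 2417. Cluster 4, led by the interferon-induced genes Ifit3, Rsad2 and Slfn4, had Ptges at 6.28 and 7.51 CPM. The cluster that matched it without those genes had 25.9 CPM (17.5 to 37.0) in control and 8.31 (4.75 to 13.5) in telmisartan. That cluster was left unnamed, and the macrophage-like class of that division held 3574 control and 3261 telmisartan cells. The values of the interferon-type cells thus differed between these divisions. Clusters 5 and 3 each had a marker of another class among their 10 leading genes (Mmp8 and Cdh1). Without them, an alternative added after the clusters were seen, the log2 ratio of Ptges over the remaining macrophage-like cells was -0.94, and 2 of 8 members were past 1.5-fold, beside 6.35% of all genes in that setting. With subclusters weighted by the control's shares, it was -0.71, and -0.50, within 1.5-fold, when the subclusters were made with the member and pathway genes. In the cluster that matched cluster 1 of the whole data set (Il1a, Ereg and Areg) with those genes left out, Ptges stood at 21.7 CPM in control and 4.54 in telmisartan.

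Of the 9 terminal synthases on the list, Ptges among them, 7 were counted, 1 higher and 6 lower in telmisartan and 0 past 1.5-fold, beside 42.9% of all genes higher and 7.01% past 1.5-fold. The intervals of Ptges, Hpgds and Fam213b among the lower ones, and that of Ptges2, the higher one, included 0. Tbxas1, which makes thromboxane, stood at 150.1 CPM in control and 127 in telmisartan, a log2 ratio of -0.24 (-0.30 to -0.18). Hpgds, which makes prostaglandin D2 in hematopoietic cells, stood at 17.6 and 17.4 CPM. Ptgds, the other prostaglandin D synthase, had 4 and 3 UMIs, too few to compare.
All 6 genes of transport and breakdown were counted, 5 higher and 1 lower, beside the same 42.9%, and the intervals of Hpgd, Abcc4, Cbr1 and Ptgr2 included 0. Slco2a1, the transporter that takes prostaglandins up, was past 1.5-fold at 1.39 CPM in control and 2.19 in telmisartan, from 53 and 62 UMIs, a log2 ratio of 0.65 (0.10 to 1.21). Ptgr1, which acts on prostaglandin breakdown products and leukotriene B4, stood at 26.8 and 32.1 CPM, a log2 ratio of 0.26 (0.13 to 0.39).

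The receptors for prostaglandin E2 showed little difference over all macrophage-like cells. Ptger4 encodes EP4 (chr15:5206661-5244187, minus strand, overlapping Ttc33 on the other strand) and stood at 45.2 CPM in control and 45.1 in telmisartan, with an interval of the log2 ratio from -0.11 to 0.10. Ptger2 encodes EP2 (chr14:44988195-45003820, plus strand, overlapping the antisense gene Gm17173) and stood at 13.6 and 14.8 CPM, a log2 ratio of 0.13 (-0.06 to 0.32). Both signal through cyclic AMP, and both were highest in subcluster 2: Ptger2 at 30.4 and 26.4 CPM, Ptger4 at 63.6 and 79.3. The interval of subcluster 2 overlapped that of subcluster 3 for Ptger2 in telmisartan and those of subclusters 4, 5 and 6 for Ptger4 in control. Among the macrophage-like clusters of the whole data set the receptors peaked apart. Ptger2 was highest in cluster 5, at 41.8 and 38.8 CPM, against 13.9 and 11.1 in cluster 4. Ptger4 was highest in cluster 4, at 81.6 and 93.6 CPM, against 25.9 and 46.8 in cluster 5.
Within subclusters the Ptger4 ratios lay on both sides of 0. It was higher in telmisartan in subcluster 1 (30.1 and 40.8 CPM, log2 ratio 0.44, 0.21 to 0.67) and subcluster 2 (log2 ratio 0.32, 0.04 to 0.60). It was lower in subcluster 3 (43.1 and 35.6 CPM, log2 ratio -0.27), subcluster 5 (51.1 and 39.4, -0.37) and subcluster 6 (47.9 and 31.7, -0.60), where each interval excluded 0. In the clusters of the whole data set the Ptger4 ratio was 0.85 (0.34 to 1.39) in cluster 5, past 1.5-fold, and 0.45 in cluster 1. It was 0.20 (-0.13 to 0.53) in cluster 4, led by the genes of subcluster 2, and clusters 2, 3 and 6 had intervals below 0. For Ptger2 the interval of every subcluster included 0. Of the remaining prostanoid receptors, Ptgir, the prostacyclin receptor, alone had enough UMIs, at 3.83 and 5.57 CPM, a log2 ratio of 0.54 (0.21 to 0.88).

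Leukotriene synthesis starts with Alox5, arachidonate 5-lipoxygenase (chr6:116410077-116461178, minus strand), and its membrane partner Alox5ap, which presents the fatty acid to it (chr5:149264767-149288153, plus strand, overlapping the antisense gene Gm19719). Alox5 stood at 34.0 CPM in control and 31.1 in telmisartan, a log2 ratio of -0.13 whose interval ran from -0.25 to just below 0. Alox5ap stood at 764 and 839.6 CPM, a log2 ratio of 0.14 (0.11 to 0.16), and 49.4% and 51.0% of thinned cells had a UMI (91.5% and 88.3% before thinning), beside 5.88% and 7.77% of T-like cells. The top 10% of cells held 27.8% and 29.3% of its UMIs, less than the shares of Ptgs2, the other member with many UMIs.
Alox5ap varied least across subclusters among the 8 members: log2 ratios ran from 0.06 in subcluster 5 to 0.23 in subcluster 2, with the intervals of subclusters 5 and 6 including 0, and the highest level was 1.32 times the lowest in control and 1.27 times in telmisartan. Alox5 varied more, at 48.1 CPM in subcluster 1 against 9.72 in subcluster 2 of control. It was lower in telmisartan in subcluster 3 (26.8 and 19.4 CPM, log2 ratio -0.46) and subcluster 4 (27.4 and 19.6, -0.49), with the other intervals including 0. Cluster 7 of the whole data set, led by the same genes as subcluster 4, had Alox5 at 11.8 and 8.46 CPM, a log2 ratio of -0.48 (-1.48 to 0.41). Cluster 2, led by the genes of subcluster 3, had -0.47 (-0.82 to -0.13), and cluster 3 had 0.06 (-0.25 to 0.36).

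Ltc4s, the synthase that joins glutathione to the leukotriene precursor, was the member with the largest ratio. It stood at 5.85 CPM in control and 11.4 in telmisartan macrophage-like cells, from 223 and 323 UMIs, a log2 ratio of 0.96 (0.71 to 1.21). With telmisartan subclusters made with the member and pathway genes and weighted by the control's shares of UMIs, the pooled log2 ratio was 0.75. By level Ltc4s was highest in subcluster 2, at 11.3 CPM in control and 16.5 in telmisartan, with all neighbours in the order overlapping. The ratio was largest in subcluster 1, at 5.79 and 12.8 CPM, a log2 ratio of 1.15 (0.66 to 1.66). Subclusters 3 (6.84 and 10.1 CPM) and 4 (4.003 and 7.83) also had intervals above 0, with log2 ratios of 0.56 and 0.97, and the intervals of the rest included 0. Cluster 2 of the whole data set, led by the same genes as subcluster 3, had Ltc4s at 8.06 and 7.51 CPM, a log2 ratio of -0.10 (-0.70 to 0.48). Clusters 1 (1.07, 0.54 to 1.62), 3 (1.25, 0.55 to 1.94) and 6 (1.04, 0.27 to 1.84) had intervals above 0, the last led by mitosis genes as subcluster 5 was.
The level is low, with a UMI in 0.475% and 0.917% of thinned cells (4.15% and 5.73% before), beside 1 of 68 and 0 of 103 T-like cells, so the comparison rests on the summed UMIs. Ltc4s lies at chr11:50236461-50238616 on the minus strand, where it overlaps the antisense gene Gm26542, and whether counting separated the strands is not stated, so the source of the UMIs is uncertain. The same holds for Ptgs1, Alox5ap, Ptger2 and Ptger4, which also overlap genes on the other strand. Mast cells and basophils are known for this enzyme, and their marker list in macrophage-like cells summed to 3.38 CPM in control and 7.72 in telmisartan, with 5 of 8 genes seen in each. Hdc made up most of it (113 and 210 UMIs), Fcer1a and Prss34 were at 0 in both groups, and its part in the Ltc4s difference was not tested. Eosinophil markers summed to 1.26 and 1.55 CPM.

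Of the 10 leukotriene synthesis genes 9 were counted, 4 higher and 5 lower, beside 42.9% of all genes higher, and the intervals of Lta4h, Mgst3, Abcc1 and Ggt5 included 0. Lta4h, which makes leukotriene B4, stood at 53.4 CPM in control and 54.7 in telmisartan macrophage-like cells, and higher in dendritic-like cells, at 92.8 and 104, and T-like cells, at 105 and 102. Dpep2, a dipeptidase that trims leukotriene D4, stood at 256 and 276 CPM, a log2 ratio of 0.11 (0.07 to 0.16). Mgst2, which can also make leukotriene C4, was past 1.5-fold on the lower side, at 3.36 and 2.15 CPM from 128 and 61 UMIs, a log2 ratio of -0.64 (-1.11 to -0.19). Ltc4s and Mgst2 thus had opposite values, both at low counts, while Mgst3 of the same list stood at 51.7 and 50.1 CPM, a log2 ratio of -0.04.
Of the leukotriene receptors 3 were counted, 1 higher and 2 lower, beside 42.9% of all genes higher. Cysltr1, which binds the cysteinyl leukotrienes, stood at 71.2 CPM in control and 60.4 in telmisartan, a log2 ratio of -0.24 (-0.33 to -0.15). Ltb4r1, the high-affinity receptor of leukotriene B4, stood at 27.0 and 23.9 CPM, a log2 ratio of -0.17 (-0.32 to -0.03), and Cysltr2 at 3.38 and 3.56, a log2 ratio of 0.07 (-0.32 to 0.46). The 4 genes of other lipoxygenases and epoxide hydrolase each had fewer than 100 UMIs. Over the whole list of 52 genes, 33 were counted, with 15 higher and 18 lower in telmisartan and a median log2 ratio of -0.02, near that of all genes.

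**Figure D3:**
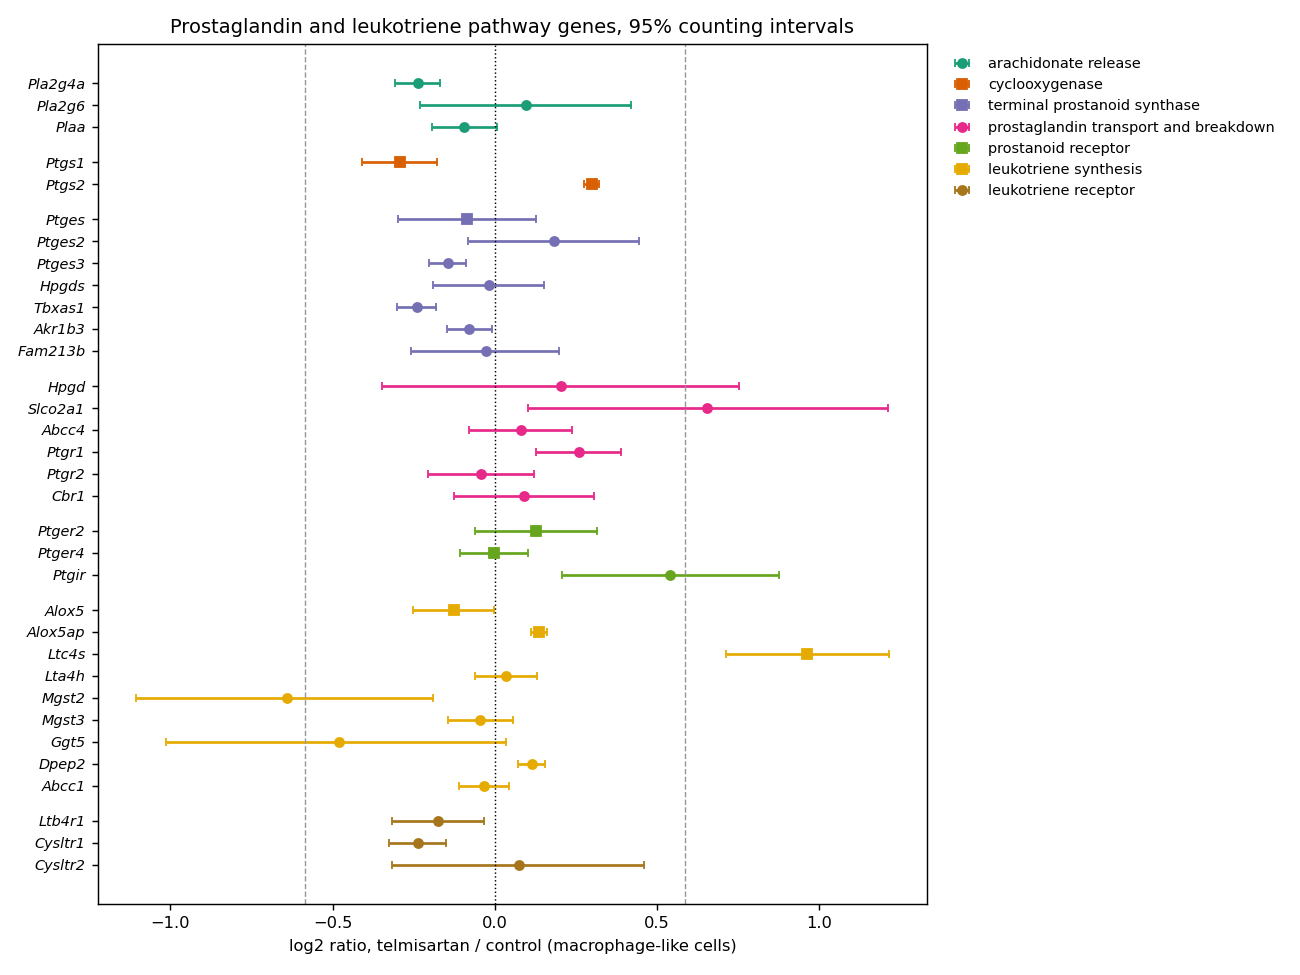
Log2 ratio of telmisartan over control in macrophage-like cells for the 33 pathway genes with at least 100 UMIs, colored by role, with members as squares, 95% counting intervals as bars and 1.5-fold as dashed lines. Ltc4s (0.96), Slco2a1 (0.65) and Mgst2 (-0.64) lie past 1.5-fold.

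Outside the macrophages, dendritic-like cells had enough UMIs for 3 members, all 3 higher in telmisartan (46.7% of 5832 genes were) and 0 of 3 past 1.5-fold, beside 7.03% of those genes (3.69% higher and 3.34% lower). Ptger4 stood at 187 CPM in control and 237 in telmisartan, a log2 ratio of 0.34 (0.16 to 0.52). Ptgs2 stood at 355 and 439 CPM, a log2 ratio of 0.31 (0.18 to 0.44), and Alox5ap at 573 and 681, a log2 ratio of 0.25 (0.14 to 0.35). The median of these 3 was 0.31, beside -0.02 over all genes of these cells.
Ptger4 was highest in cluster 10, led by Fscn1, Ccl22 and Ccr7, which mark dendritic cells on their way to lymph nodes, at 411 CPM in control and 531 in telmisartan. Alox5ap was low there, at 82.4 CPM over both groups, against 686 in cluster 8 (Ccl17, Plet1 and Ifitm1) and 737 in cluster 11 (Sept3, Plet1 and Itgae). The Ptgs2 ratio differed among these clusters: it was 0.17 (0.03 to 0.31) in cluster 8, -1.03 (-1.71 to -0.39) in cluster 11 and 2.94 in cluster 10, at 80.6 and 619.8 CPM. Without cluster 10 the Ptgs2 level of dendritic-like cells was 396 and 413 CPM, a log2 ratio of 0.06 (-0.08 to 0.20), so the value of 0.31 rests on that cluster. Without the cell of most Ptgs2 UMIs in the class, a control cell with 85, it was 0.42 (0.29 to 0.55). In cluster 10, 62 of the 160 telmisartan UMIs came from 1 cell, without which the level was 391 CPM and the log2 ratio 2.28 (1.68 to 2.91). In T-like cells Ptgs2 stood at 208 and 88.4 CPM, and 68 of the 91 control UMIs came from 1 cell. Without it control stood at 54.9 CPM and the log2 ratio went from -1.23 to 0.69 (-0.09 to 1.495), so the direction in T-like cells rests on that cell. These omissions were chosen after the data were seen. In neutrophil-like cells Ptgs2 gave a log2 ratio of -0.08 (-0.33 to 0.16), and 77.1% and 83.3% of thinned cells had a UMI.

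In single macrophage-like cells Ptgs2 was seen more often where Ptges was. After thinning, Ptgs2 was seen in 70.2% of control cells with a Ptges UMI (40 of 57; 56.6% to 81.6%) and in 38.6% of those without (37.0% to 40.1%). In telmisartan the shares were 67.9% (36 of 53; 53.7% to 80.1%) and 48.0% (46.4% to 49.5%). For the receptors Ptger2 and Ptger4, the intervals of the Ptgs2 share in cells with and without a receptor UMI overlapped in both groups. For the cyclooxygenases, Ptgs2 was seen in 27.9% of control cells with a Ptgs1 UMI (20.6% to 36.1%) and 39.4% of those without (37.9% to 41.0%). The telmisartan shares were 48.1% (38.3% to 58.0%) and 48.2% (46.6% to 49.8%), so the intervals lay apart in control only. T-like cells also had Ptgs1 UMIs after thinning (2.94% and 0.971%), so these shares cannot decide whether the cyclooxygenases pair. Alox5ap was seen in 57.8% of control cells with an Alox5 UMI and 49.2% of those without, with overlapping intervals. Cells are not replicates, and these shares describe 1 pool per group.

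Across 24 units, the 6 macrophage subclusters and the 6 other clusters in each group, Ptgs2 and Ptges had a Pearson r of 0.756 on log2 CPM, Ptgs1 and Ptgs2 0.0497, and Ptger2 and Ptger4 -0.733. The units share 1 capture and differ in depth, and some held few UMIs of a member. Over both groups, neutrophil-like cells had 15 Ptger2 and 1 Ptger4 UMIs, and cluster 10 had 0 Ptger2 and 295 Ptger4. Among the macrophage subclusters both receptors were highest in subcluster 2. The r values are therefore descriptions, and how far they rest on such units was not tested. Among 8641 genes, the most like Ptgs2 were Rnf149 (r 0.939), Ets2, Sod2, Nlrp3 and Cxcl2, and the most like Ptges were Serpinb2 (0.886), Prdx6, Esd, A930007I19Rik and Grina. Ptgs1 was most like Cd276 (0.903), Tmem37, Itga6, P2ry12 and C1qb. For the receptors, Ptger2 was most like Adgre5 (0.899), Pcid2, Ccl4, Map2k3 and Trim56, and Ptger4 most like Polb (0.951), Lrrk1, Ctnna1, Ddhd1 and Ext1. In the leukotriene branch, Alox5ap was most like Gsn (0.953), Psap, Plxna1, Cd300c2 and Egr2, Alox5 most like Lyrm4 (0.874), Tceal8 and Degs1, and Ltc4s most like Lats2 (0.792), Gm34084, Crtc3, Cdc42bpb and Tmem63b.

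Because Ptgs2 and Ptges varied together across these units and Ptgs1 did not, the 250 bases before the start of each are printed, from RefSeq promoters on GRCm38.p6, which held 7 of the 8 members (Alox5ap had no entry). Capitals mark matches, on either strand, to any of the motifs searched: the C/EBP palindrome TTGCGCAA, the cyclic AMP response element core TGACGT, the E-box CACGTG, the GC box GGGCGG, the TATA box TATAAA and the NF-kB consensus. Ptgs2 is chr1:150099781-150100030 on the plus strand, Ptges chr2:30903298-30903547 on the minus strand, and Ptgs1 chr2:36230176-36230425 on the plus strand, each 5′ to 3′. The RefSeq start of Ptges lies inside the GENCODE span given above, not at its end, so another start was used for it.
Ptgs2: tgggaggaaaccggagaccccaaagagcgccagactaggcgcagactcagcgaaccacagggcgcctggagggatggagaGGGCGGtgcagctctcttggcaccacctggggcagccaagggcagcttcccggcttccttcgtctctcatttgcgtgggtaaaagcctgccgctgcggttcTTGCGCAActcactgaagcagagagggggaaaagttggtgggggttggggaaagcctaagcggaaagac
Ptges: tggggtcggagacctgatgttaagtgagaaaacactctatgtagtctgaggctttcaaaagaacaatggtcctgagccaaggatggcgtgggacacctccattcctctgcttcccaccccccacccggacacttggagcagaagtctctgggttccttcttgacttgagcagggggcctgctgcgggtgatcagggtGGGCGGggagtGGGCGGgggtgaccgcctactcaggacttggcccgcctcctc
Ptgs1: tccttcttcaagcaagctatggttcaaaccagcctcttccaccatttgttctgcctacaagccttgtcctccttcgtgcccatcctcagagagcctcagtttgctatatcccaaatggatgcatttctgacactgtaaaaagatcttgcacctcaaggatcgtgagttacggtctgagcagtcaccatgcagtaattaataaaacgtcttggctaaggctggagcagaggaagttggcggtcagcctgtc
In Ptgs2 the palindrome starts 69 bases before the start and a GC box 170 bases before it, and in Ptges GC boxes start 53 and 42 bases before. In the 50 bases after the start, which were searched but are not printed, Ptgs2 also has the response element core and an E-box, from bases 13 and 17 and overlapping each other. Over the 250 bases before the start, the palindrome is in 0.164% of 32851 promoters, the GC box in 32.7%, the response element core in 6.47%, the E-box in 6.02%, the TATA box in 12.4% and the NF-kB consensus in 7.25%. With the 50 bases after the start included, the response element core is in 7.51% and the E-box in 7.15%. None of the motifs is in the Ptgs1 window. A match describes letters and shows neither binding nor a cause.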

How the data were processed

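Gene counts in the deposited table are UMIs per gene and cell, and Sample Tag counts are reads per cell; the authors made both with the BD Rhapsody WTA pipeline on GRCm38 with GENCODE M19, intronic reads included. The tables share 20726 cell barcodes and hold 107214449 UMIs and 8041345 tag reads. A cell was called for a tag with at least 10 tag reads and 75% of them on it (8738 control and 10222 telmisartan cells, 1580 multiplets, 186 with few reads). Cells with 150 to 5000 genes and at most 20% mitochondrial UMIs were kept (5078 and 4833). Scrublet in scanpy 1.11.5 marked 0 cells at its own threshold, so the 942 highest scores, the expected doublets, were removed. Clusters came from Seurat 5.3.0 in R 4.3.3 (2000 variable genes, 30 principal components, resolution 0.5; 6 members were among the variable genes) and were named by marker lists. A shallow cluster with none of its own class's markers among its leading genes was left unnamed. Subclusters used resolution 0.4. Intervals are exact Poisson for CPM, conditional binomial for ratios and Clopper-Pearson for shares (scipy 1.17.1). Those for ratios were tried on simulated Poisson sums, which is the model they assume. That trial cannot show how they hold where a few cells carry many of the UMIs. Likeness used log2 of CPM plus 10. Alternatives covered tag calls, cell limits, doublets, clustering, scaling (TMM in edgeR 4.0.16), thinning and thresholds. Members and lists were chosen with earlier results of these data known. Positions are from GENCODE M21, the same build.

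The marker lists summed over kept cells, in CPM of control and telmisartan, gave 16291 and 15217 for macrophages (Lyz2 most abundant), 67.6 and 118 for T cells, 4.95 and 3.95 for NK cells, 146 and 146 for dendritic cells and 95.2 and 124 for plasmacytoid dendritic cells (nearly all Bst2). They gave 116 and 109.5 for neutrophils, 9.18 and 11.1 for mast cells or basophils, 1.44 and 2.17 for eosinophils and 21.2 and 12.0 for platelets. Fibroblasts gave 7.77 and 13.3, endothelial cells 26.4 and 25.5 and tumor epithelium 65.9 and 46.9 (nearly all Cdh1).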

Additional observations from a re-analysis of the deposited data

Results flagged for a closer look

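Some log2 ratios of telmisartan over control had opposite signs in different cells, with each interval on its own side of 0. None of these differences was tested, since each group is 1 pool, and their causes were not tested either.

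Between cell classes, Ptgs2 had a log2 ratio of 0.31 in dendritic-like and -1.23 in T-like cells, where 68 of the 91 control UMIs came from 1 cell. Without that cell the T-like value was 0.69 (-0.09 to 1.495). With all cells kept, T-like cluster 9 had 0.54 (-0.41 to 1.54) and T-like cluster 13 had -2.20 (-3.14 to -1.36). Cluster 9 held 42 Ptgs2 UMIs over both groups and cluster 13 held 89, so the control cell with 68 lay in cluster 13. The value of cluster 13 thus rests on the same cell. Among the dendritic-like clusters Ptgs2 had 0.17 in cluster 8, 2.94 in cluster 10 and -1.03 in cluster 11, and 0.06 without cluster 10. Alox5ap had 0.25 in dendritic-like and -0.69 in T-like cells, from 75 control and 48 telmisartan UMIs in the latter. Alox5 had 0.76 in dendritic-like cells, from 30 and 36 UMIs, and -0.13 in macrophage-like cells.

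Between macrophage subclusters, Ptgs2 had a log2 ratio of 0.70 in subcluster 3 (Apoe and Folr2) and -0.44 in subcluster 1 (Cxcl3 and Ereg). Ptgs1 showed the mirror image, at 0.43 in subcluster 1 and -0.70 in subcluster 3. Ptger4 had 0.44 in subcluster 1 and -0.60 in subcluster 6 (Ung and Mcm6).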

How the results depend on the processing

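Over 16 alternatives, 3 of them added after the data were seen, Ptgs1, Alox5 and Ltc4s kept their direction in all 16, and Ltc4s stayed past 1.5-fold in 15. The exception was UMIs per cell with no scaling for depth, which moved the median of all genes to -0.45: the member median was then -0.35, Ltc4s 0.55 and Ptgs2 -0.11, and the 1 member past 1.5-fold was Ptgs1 (-0.70), beside 30.2% of all genes. Among those added, with telmisartan subclusters weighted by the control's shares the member median was -0.12 (-0.04 over all genes) and 2 members were past 1.5-fold, Ltc4s and Ptges (-0.71), beside 5.14% of all genes. With the same weighting on subclusters made with the member and pathway genes, Ptges (-0.50) was not (5.26%). Without clusters 3 and 5, 2 were, Ltc4s and Ptges (-0.94; 6.35%). Also chosen after the data were seen, omissions of cells moved Ptgs2: in T-like cells it went from -1.23 to 0.69 without 1 control cell, and in dendritic-like cells from 0.31 to 0.06 without cluster 10. The cause of these shifts was not tested. At a fold of 2, 0 members passed, beside 1.60% of all genes. Apart from the missing scaling, Ptgs2 ran from 0.03 to 0.37, Ptges from -0.94 to 0.13 and Ptger2 from -0.14 to 0.43. Subclusters made with the member and pathway genes gave Ptgs2 values from -0.29 to 0.66. With 1 pool per group, differences among mice are not measured, and genes under 100 UMIs and classes other than macrophage-like have wide intervals.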
